A study of Arabidopsis thaliana with 8 samples.

Results

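AT5G39520, AT1G16850 and OCT1 (AT1G73220) are 3 Arabidopsis thaliana genes, each read by 1 of the 22810 probe sets of the Affymetrix ATH1 array. They were chosen from the values reported here, because they stood among the largest drought differences in leaves of the dor mutant. That difference is therefore given as a description, with no test. The study measured rosette leaf RNA on 8 arrays, which form 4 groups of 2 biological replicates. Wild type (WT) plants were of the Columbia accession, and dor plants carried a SALK T-DNA insertion (Salk-050074) in the same background. Control plants of each genotype were watered for 34 days. Drought plants were watered for 24 days and then had no irrigation for 10 days, so both conditions were sampled at the same age. All plants grew in soil at 22 degrees with 16 hours of light. The mutant is 1 insertion line, and nothing in the labels says how many plants went into an array.

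Plants that run out of water accumulate abscisic acid (ABA). The hormone binds receptors that block a group of protein phosphatases, which frees protein kinases to switch on genes for dehydrins and other protective proteins. OCT1 codes for a membrane protein of the organic cation transporter family, and in Arabidopsis it has been linked to the transport of carnitine. AT5G39520 and AT1G16850 have no symbol in the gene table used here and no well-described function. DOR is an F-box gene, and F-box proteins select other proteins for breakdown.

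Signals are MAS5 intensities, on a linear scale, and their levels are compared here within a probe set and not between probe sets. On each array the 40th percentile of all signals, between 59.5 and 90.8, served as a mark of dim signal. DOR itself read 2.3 to 21.4 over all 8 arrays, so it gave no check of the genotype labels. RCA, the Rubisco activase gene of green leaves, read 9383 to 36420, and the root peroxidase gene AT5G19890 read 1.9 to 46.8, below the mark on every array. The other planned marker genes of leaf, root, seed and flower were not analysed here. The arrays of the 2 replicate numbers also stood apart: spike-in RNAs gave 337 to 447 in replicate 1 and 16.3 to 104 in replicate 2. RNA integrity, read as 5 prime over 3 prime signal of actin, was lowest in both controls of replicate 1, at 0.229 and 0.245, against 0.366 to 0.575 elsewhere. The part of the spike-in difference in the results below was not tested, and WT values without the controls of replicate 1 are given beside the WT test.

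AT5G39520 was near or below the mark in watered plants of both genotypes and well above it in droughted ones, and it was brightest in droughted dor. In WT control it read 49.1 and 98.5 on replicates 1 and 2, and in WT drought 2168 and 1617. In dor control it read 20.0 and 16.6, and in dor drought 15559 and 6062. The 4 groups followed each other in the order dor control, WT control, WT drought and dor drought, and no 2 of them overlapped. The share of the probe sets tested below with this order was not counted. Every drought array lay above every control array for 10.5% of them. Without overlap, 0.883% had dor above WT under drought and below it when watered. In leaf RNA a change in the cells that make a transcript cannot be told apart from a change in RNA per cell, here and for all values below. Within each array this took the gene from a percentile rank of 17.8 to 41.4 in watered plants to 90.4 and 92.5 in droughted WT and to 98.1 and 99.6 in droughted dor.

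AT1G16850 had the same order of groups but was less even. In WT control it read 80.1 and 421 on replicates 1 and 2, and in WT drought 422 and 782. In dor control it read 52.6 and 3.1, and in dor drought 10724 and 2608. The 2 WT groups met almost edge to edge, since WT control replicate 2 read 420.9 and WT drought replicate 1 read 421.5. The higher WT control exceeded the lower 5.25-fold, against 2.01-fold for AT5G39520, and both dor controls lay below the mark. The 3.1 of dor control replicate 2 had a percentile rank of 4.14 on its array, so it marks a signal at background and not a measured level.

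OCT1 was at background in all watered plants. It read 3.4 and 1.7 in WT control and 2.2 and 2.5 in dor control, at percentile ranks of 1.29 to 5.64, so the 2 control groups overlapped and have no order. In WT drought it read 106 and 508 on replicates 1 and 2, and in dor drought 555 and 1436. Both droughted groups lay above all 4 controls, and the dor drought arrays lay above those of WT drought, the nearest at 555 against 508. WT drought replicate 1 stood at a percentile rank of 48.2, the middle of its array, against 72.2 to 89.2 on the other 3 drought arrays.

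**Figure D1:**
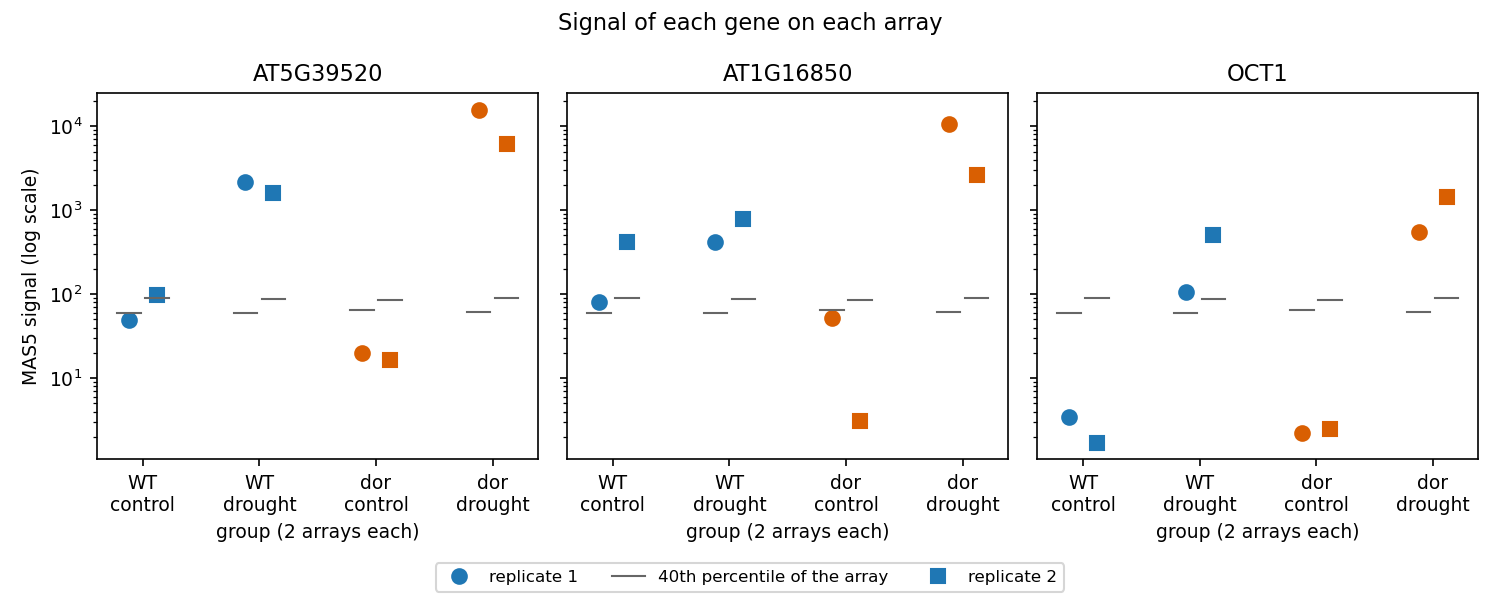
MAS5 signal (log axis) of the 3 genes on each of the 8 arrays, by group, with circles for replicate 1, squares for replicate 2, blue for WT and orange for dor; grey bars give the 40th percentile of each array. Dor drought was the highest group for each gene, and OCT1 lay below the bars on all 4 control arrays.

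The WT arrays are no part of the dor contrast that chose the genes, so a test is given for drought in WT, with the limits stated below. Its standard errors pool the spread within all 4 groups, the dor groups among them. The test is therefore not wholly separate from the choice of the genes. None of the 3 genes passed the test in limma, a linear model fitted to all 15523 tested probe sets with p-values adjusted over all of them (Benjamini-Hochberg, two-sided). The background is low: 0.00644% of tested probe sets, which is 1 of them, were called, and 1482 had an unadjusted p under 0.05. Under the group means AT5G39520 stood 26.9-fold higher in WT drought, a log2 difference of 4.75 ± 0.67 (SE, n = 2 arrays per group, limma adjusted p = 0.125, unadjusted p = 7.97e-05). For OCT1 the difference was 6.59 ± 1.20 (limma adjusted p = 0.193, unadjusted p = 0.000487). Probe sets were tested where at least 2 arrays reached the mark, which OCT1 did through its drought arrays alone and AT5G39520 with 1 of its 4 controls. Their differences and p-values are therefore a description, and that of OCT1 is measured from controls at background. For AT1G16850 the difference was 1.64 ± 1.38 (limma adjusted p = 0.701, unadjusted p = 0.266). This standard error rests on all 4 groups, the dor controls at 52.6 and 3.1 among them. Fitted to the 4 WT arrays alone, the standard error was 0.92. Ranked from the highest of the 15523 WT differences, OCT1 stood at 8, AT5G39520 at 54 and AT1G16850 at 1388. With signals below the mark lifted to the mark of their array the ranks were 861, 19 and 898, so the order of the 3 genes depended on background. All 3 genes had both WT drought arrays above both WT controls, as did 22.9% of tested probe sets.

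The 2 genotypes were not independent in this respect: WT and dor arrays that share a condition and a number moved off their group means together (r = 0.594 for the controls and 0.402 for drought, over tested probe sets). The WT difference therefore does not come from a wholly separate experiment. Within a replicate number the WT drought difference of AT5G39520 was 5.46 and 4.04 on the log2 scale for replicates 1 and 2. That of OCT1 was 4.96 and 8.22, and that of AT1G16850 was 2.40 and 0.89. The sign was the same in both replicates for each gene, and the size of the OCT1 difference varied most. Within a genotype the label for RNA extraction names an added reagent for 1 replicate number only, so these are also differences within 1 wording of extraction. The AT1G16850 difference in WT was 2.84 without WT control replicate 2 and 0.45 without WT control replicate 1, so it depended on which control was used. Without both controls of replicate 1, in either genotype, the WT differences were 4.25 for AT5G39520, 0.45 for AT1G16850 and 7.09 for OCT1, and none passed the test (limma adjusted p = 0.286, 0.933 and 0.288).

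In dor, the contrast that chose the genes, AT5G39520 stood 9.06 ± 0.67 log2 units higher under drought (SE, n = 2 arrays per group). AT1G16850 stood 8.69 ± 1.38 higher and OCT1 8.57 ± 1.20 higher, and 26.5% of tested probe sets had both dor drought arrays above both dor controls, from which nothing is read for genes chosen by this contrast. Within replicates 1 and 2 the values were 9.60 and 8.51 for AT5G39520, 7.67 and 9.72 for AT1G16850 and 7.98 and 9.17 for OCT1. All 3 values are measured from dor controls below the mark, so their exact sizes are not fixed by the data. All 3 genes had every drought array above every control array, as did 10.5% of tested probe sets.

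The sizes in dor depended on how dim signals were treated. When signals below the mark were lifted to the mark of their own array, called raised signals from here on, the dor differences were 7.04 for AT5G39520, 6.16 for AT1G16850 and 3.60 for OCT1. The same step gave 4.61, 1.64 and 1.67 in WT, in that order. OCT1 thus moved from the largest WT difference of the 3 to about the size of AT1G16850, since all 4 of its control signals lay below the mark. AT5G39520 had 3 of its 4 controls below the mark and AT1G16850 had 2, both in dor. In raised signals the dor difference exceeded the WT difference within each replicate number for all 3 genes. The choice of the genes for a large dor difference favours this. The share of tested probe sets doing so was not counted. For AT5G39520 the dor and WT values were 7.92 and 5.19 in replicate 1 and 6.16 and 4.04 in replicate 2. For AT1G16850 they were 7.38 and 2.40 in replicate 1 and 4.94 and 0.89 in replicate 2. For OCT1 they were 3.11 and 0.83 in replicate 1 and 4.08 and 2.51 in replicate 2.

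**Figure D2:**
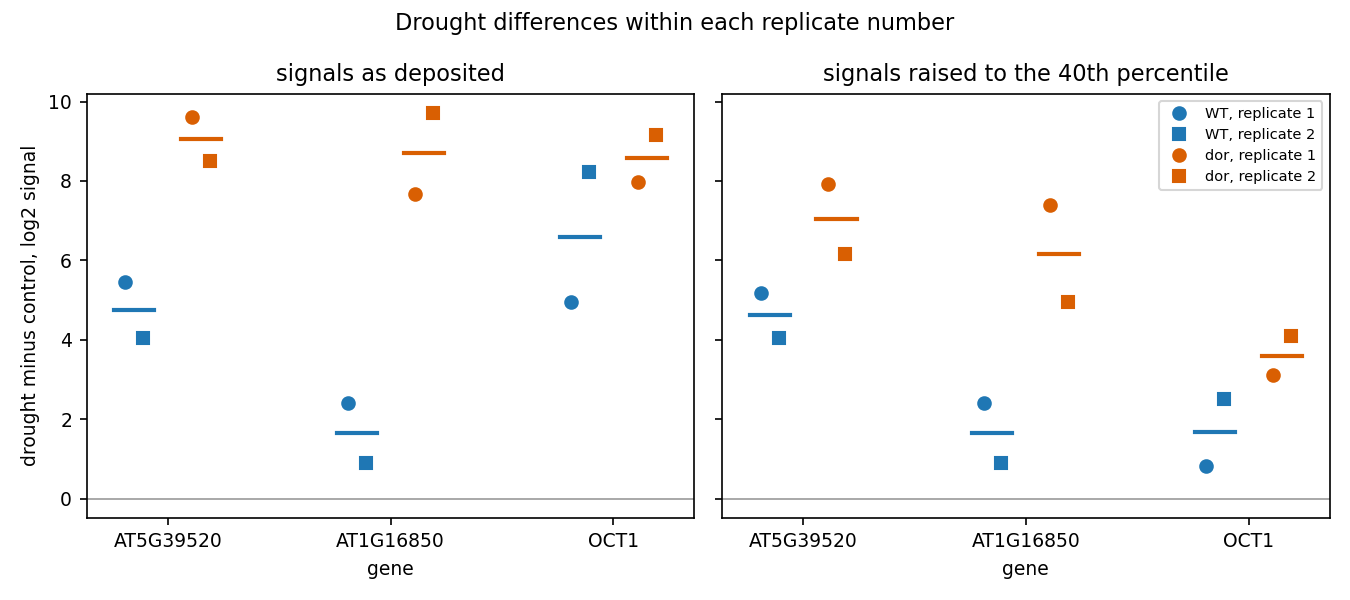
Drought minus control in log2 signal for each gene within replicate 1 (circles) and replicate 2 (squares), blue for WT and orange for dor, with bars at the mean of the 2; the left panel uses the signals as deposited, the right panel raises dim signals to the 40th percentile of their array. Raising shrinks OCT1 most, from 8.57 to 3.60 in dor, and leaves AT1G16850 in WT at 1.64.

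Whether the mutant differs from WT was asked over both conditions together. This is a sum over the conditions and not the drought difference in dor, but it uses the same dor arrays, dim controls included. The test is therefore not wholly separate from the choice of the genes. None of the 3 genes passed limma's test, and 0% of the 15523 probe sets did, while 308 had an unadjusted p under 0.05, none of the 3 genes among them. The differences of dor against WT were 0.22 ± 0.83 for AT5G39520, -0.32 ± 1.48 for AT1G16850 and 0.96 ± 0.85 for OCT1 (limma adjusted p = 1 for each). With a random block for arrays that share a condition and replicate number, the standard errors were 0.76, 1.42 and 0.65, in that order. The limma adjusted p was then 0.954, 0.967 and 0.721, and 1201 probe sets had an unadjusted p under 0.05. Both fits are additive, so a drought response that differs between the genotypes counts as spread in these standard errors. The drought difference in dor minus that in WT was 4.31, 7.05 and 1.98 log2 units, in the same order. The test therefore does not speak to either condition alone. The sign for AT1G16850 was not stable: with dim signals raised it was 0.94, and without dor control replicate 2 it was 1.20. That for AT5G39520 was -0.48 without dor drought replicate 1.

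The sum holds opposite values in the 2 conditions for 2 of the genes. The following values also share the dor arrays with the contrast that chose the genes, and they have no test. Under drought, dor stood above WT by 2.38 ± 0.67 for AT5G39520, 3.20 ± 1.38 for AT1G16850 and 1.95 ± 1.20 for OCT1, on the log2 scale. No signal below the mark enters these, and the groups of each gene did not overlap, as was so for 15.1% of tested probe sets in this direction. In linear terms AT5G39520 was 7.18-fold higher in dor on replicate 1 and 3.75-fold on replicate 2. AT1G16850 was 25.4-fold and 3.34-fold higher, and OCT1 5.26-fold and 2.83-fold. The label for RNA extraction names the added reagent for dor in replicate 1 and for WT in replicate 2, so within a replicate number genotype and wording of extraction cannot be told apart.

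In watered plants the mutant stood below WT for AT5G39520 (-1.93 ± 0.67) and AT1G16850 (-3.85 ± 1.38), where the groups did not overlap, as for 7.47% of tested probe sets in this direction. For OCT1 the difference was -0.04 ± 1.20. With raised signals the 3 values were -0.05, -1.31 and 0.02. The AT5G39520 difference in watered plants thus lay within the dim range of the arrays. What was left for AT1G16850 came mainly from replicate 2, where the raised difference was -2.31 against -0.32 in replicate 1. AT5G39520 and AT1G16850 combined both features without overlap, dor above WT under drought and below it when watered, as did 0.883% of tested probe sets.

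Taking the drought difference in dor minus that in WT, AT1G16850 had the highest value of all 15523 probe sets, 7.05 ± 1.95, against 4.31 ± 0.94 for AT5G39520 and 1.98 ± 1.69 for OCT1. No test is given, since the choice of the genes favours a large value. With dim signals raised the values were 4.52, 2.43 and 1.93, and AT1G16850 ranked 4 from the highest.

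**Figure D3:**
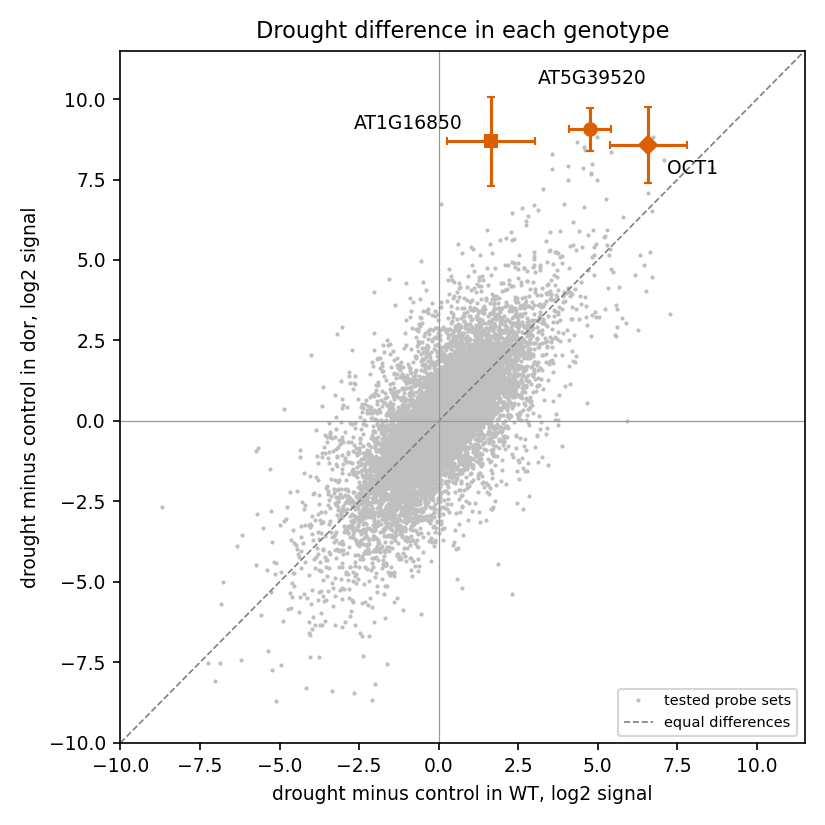
Drought minus control in log2 signal in WT (horizontal axis) and dor (vertical axis) for the 15523 tested probe sets (grey dots), with the 3 genes in orange and bars of 1 standard error of the fit; the dashed line marks equal differences. All 3 genes lie near 9 on the dor axis and spread from 1.64 to 6.59 on the WT axis.

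Drought marker genes were also looked at on WT control replicate 2, the array where the AT1G16850 control signal was high. The list of ABA and drought markers held 12 loci, of which 3 were tested. COR47, which codes for a dehydrin, read 5930 on that array and 606 to 1163 on the other 3 controls. LTI30, another dehydrin gene, read 671 there and 200 to 303 on the other controls. HIS1-3, a linker histone gene known for induction by drought, read 305 there and 8.5 to 77.9 on the others. All 3 markers were thus highest among the controls on the array where AT1G16850 was highest among the controls. The share of all tested probe sets highest there was not counted, so nothing is read from this. AT5G39520 also had its highest control signal there, at 98.5, but OCT1 had its lowest, at 1.7. The median signal of the arrays was 163 to 171 in replicate 2 and 97 to 120 in replicate 1. The part of that array in the WT difference of AT1G16850 is given by the value without it, 2.84 in place of 1.64.

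Under drought the 3 markers divided. LTI30 was higher in dor, at 45119 and 17566 against 2819 and 3065 in WT, as the 3 genes were. COR47 read 30059 and 22750 in dor and 11597 and 9772 in WT. HIS1-3 overlapped between the genotypes, at 8729 and 5668 in dor and 15020 and 3153 in WT. In WT none of the 3 markers was called higher or lower by limma, and each had an unadjusted p under 0.05 with a higher signal, as did 4.97% of tested probe sets. Their median WT drought difference was 3.01 on the log2 scale, beside 0.16 over all tested probe sets. In dor the median was 6.70, beside 0.17. None of the 26 loci listed for ABA receptors, phosphatases, kinases and transcription factors was analysed here.

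Of the organic cation and carnitine transporter list, 3 of 7 loci were tested: OCT1, OCT4 and OCT5. OCT4 and OCT5 have been placed in the vacuolar membrane. In WT limma called none of them in either direction. OCT4 went from 12.3 and 89.0 in watered WT to 802 and 265 in droughted WT, and from 52.6 and 122 in watered dor to 483 and 411 in droughted dor. It was higher on every drought array than on any control, as were 10.5% of tested probe sets, and 3 of its control signals lay below the mark. Unlike OCT1 it did not stand higher in droughted dor than in droughted WT. Its drought difference was 3.80 ± 1.02 in WT (limma adjusted p = 0.352) and 2.48 ± 1.02 in dor, or 2.66 and 2.33 with dim signals raised.

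OCT5 went the other way. Its signal was 707 and 692 in watered WT and 314 and 341 in droughted WT, and for dor it was 842 and 316 with water and 180 and 155 without. The drought arrays were lower within each genotype, by -1.10 ± 0.62 in WT (limma adjusted p = 0.594) and -1.63 ± 0.62 in dor. The 2 OCT genes measured beside OCT1 thus had drought differences of opposite sign.

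The nearest tested genes beside AT1G16850 and OCT1 on the chromosome are given as a description. The 3 genes were chosen for large dor differences, so smaller ones beside them are no result. Next to AT1G16850 lie AT1G16840 and AT1G16860, both tested. Their drought differences were 0.46 ± 0.58 and -0.65 ± 0.57 in WT (limma adjusted p = 0.799 and 0.711) and 1.17 ± 0.58 and -0.10 ± 0.57 in dor. Next to OCT1 lies AT1G73230, with -1.31 ± 0.64 in WT (limma adjusted p = 0.553) and -1.40 ± 0.64 in dor. On the other side the nearest tested gene, AT1G73200, lies 3 genes away and gave 0.60 ± 0.87 in WT (limma adjusted p = 0.834) and 1.51 ± 0.87 in dor. The differences of these 4 genes lay between the 5th and 95th percentiles of all tested probe sets. Those were -2.01 and 2.10 in WT and -2.57 and 2.42 in dor. For AT5G39520 none of the 5 genes on either side was tested here.

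For each gene the 4 named genes with the most similar course over the 8 arrays were found by Pearson correlation of raised log2 signals, among 8458 tested probe sets that stand for 1 named gene. The 8 arrays are 4 groups of 2, so genes with the same group levels reach a high value, and no test is given. For AT5G39520 they were AT2G21820 (r = 0.994), the glucosyltransferase gene UGT73B5 (0.994), AT3G48020 (0.991) and AT5G45310 (0.991). On signals as deposited the values were 0.938, 0.876, 0.951 and 0.983, in that order. AT2G21820 went from 23.3 and 27.2 in watered WT to 1080 and 1784 in droughted WT, and from 62.9 and 63.1 in watered dor to 7425 and 3442 in droughted dor. Its WT drought difference of 5.79 ± 0.61 (limma adjusted p = 0.0715) was larger than that of AT5G39520 and did not pass the test.

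The genes most like AT1G16850 were AT4G02360 (r = 0.994), AT1G50630 (0.983), AT3G05640 (0.983), which codes for a protein of the phosphatase class that includes the ABA phosphatases, and the dehydrin gene LTI30 (0.976). On signals as deposited these were 0.818, 0.880, 0.879 and 0.873. AT3G05640 shared the high WT control replicate 2, with 91.8 and 458 in watered and 363 and 543 in droughted WT, against 156 and 152 in watered and 2438 and 1271 in droughted dor. Its WT drought difference was 1.11 ± 0.81 (limma adjusted p = 0.662) and its dor difference 3.52 ± 0.81. None of its signals lay below the mark, which was a reason to show it, and its likeness to AT1G16850 is the choice and not a result.

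The genes most like OCT1 were AT5G16980 (r = 0.987), AT2G16990 (0.980), AT1G09230 (0.979) and AT3G49210 (0.974), and 0.938, 0.936, 0.862 and 0.802 on signals as deposited. AT2G16990 had no signal below the mark: it read 233 and 299 in watered and 421 and 801 in droughted WT, against 265 and 229 in watered and 1299 and 2082 in droughted dor. Its drought difference was 1.14 ± 0.58 in WT (limma adjusted p = 0.570) and 2.74 ± 0.58 in dor. No gene was among the 4 nearest of more than 1 of the 3.

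**Figure D4:**
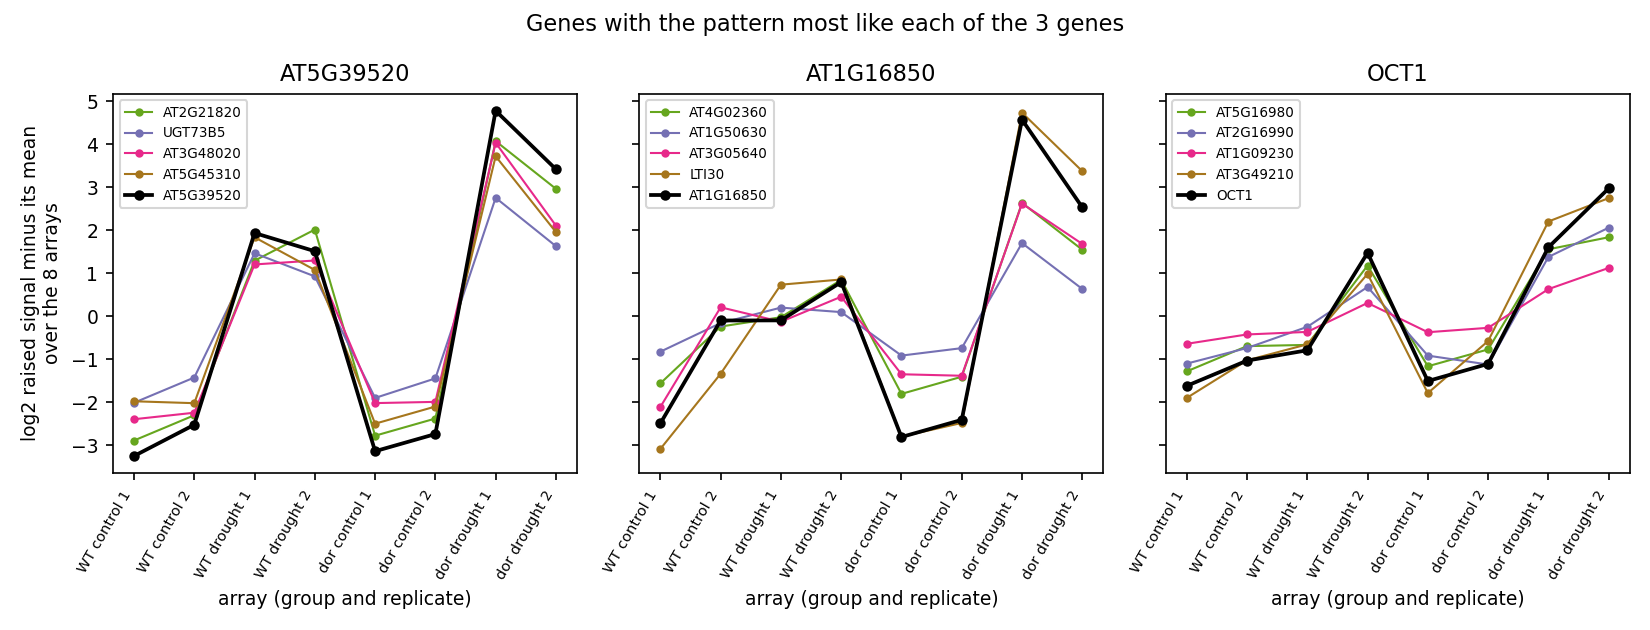
Log2 signal, with dim signals raised to the 40th percentile and each gene's mean over the 8 arrays subtracted, for each of the 3 genes (black) and the 4 named genes most like it (colours), across the arrays by group and replicate. AT5G39520 and AT1G16850 peak on dor drought replicate 1, OCT1 peaks on dor drought replicate 2, and AT1G16850 already stands high on WT control replicate 2.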

How the data were processed

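Biotin-labelled cRNA from 5 µg of rosette leaf RNA was hybridised to 8 ATH1 arrays. The authors deposited 1 intensity value, on a linear scale, for each probe set of each array; GCOS and MAS5 are the tools in the submitters' processing notes, with no version given. Their mean after trimming 2% at each end was 500.0 to 500.1 on every array, and this scaling was kept. Signals under 1 were set to 1 (399 values) and log2 was taken. Tests covered the 15523 probe sets that reached the 40th percentile of an array on 2 or more arrays, without the 64 Affymetrix control probe sets. Names came from a probe table and a RefSeq gene table; 8459 tested probe sets stood for 1 named gene. No columns were left unmapped (0), and positions are not given because no build is named in the sources used here.

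Comparisons used limma 3.58.1 in R 4.3.3 with an intensity trend and a threshold of 0.05 on the adjusted p: 4 group means for drought in WT, and an additive model of condition and genotype for the genotypes. The scripts were checked on simulated data. There the WT drought test recovered 1.49% of changes of 2 log2 units, 47.8% of those of 4 and 95.5% of those of 8. A gene that did not pass is therefore not shown to be unchanged. With 2 arrays per group, p-values for drought in WT measure the spread between these arrays, and their number limits the precision. For the genotypes, the additive model also counts as spread any drought response that differs between them. The 3 genes, the lists and the settings were chosen with earlier results of these data known. Genes were named by rule: the 3 genes, tested members of the transporter list, the 3 brightest tested genes of each other list and any called in WT, the nearest tested gene on each side, and the 4 genes of most similar course, of which those with fewest dim signals or the highest r are given with values. The planned comparisons of protein and promoter sequences were not run. Alternatives were quantile normalization, median centring, an offset, raised dim signals, other filters, no trend, blocks for replicate number, extraction wording and shared condition and replicate number, fewer arrays, and leaving out arrays. Figures were drawn with matplotlib 3.10.9 in Python 3.11.15.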

Additional observations from a re-analysis of the deposited data

How the results depend on the processing

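The WT drought difference kept its sign in all 20 other settings for each gene. In the settings that kept 2 arrays in every group fitted, the limma adjusted p stayed above 0.05, so no gene passed. It was 0.0844 to 0.2515 for AT5G39520, 0.586 to 0.828 for AT1G16850 and 0.143 to 0.564 for OCT1. For AT5G39520 and OCT1 these values remain a description, since both were tested mainly or only through their drought arrays. Leaving out 1 array gave 4.25 to 5.25, 0.45 to 2.84 and 5.46 to 7.72. The number of probe sets limma called in WT was 3 after quantile normalization and with only the 4 arrays compared, 2 with raised dim signals, and 0 after median centring, without the trend, with the extraction wording as a block and without both controls of replicate 1; it was 0 to 6 with 1 array left out, beside 678 to 2085 probe sets at an unadjusted p under 0.05 over all settings. With a replicate block it was 1, beside 2085, with adjusted p of 0.142 for AT5G39520, 0.586 for AT1G16850 and 0.158 for OCT1; the replicate numbers did not go together between the conditions of a genotype (r = 0.05 in WT and -0.04 in dor), and the labels name no shared batch.

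The genotype difference over both conditions turned positive for AT1G16850 with an offset (0.068), with raised signals (0.94), without dor control replicate 2 (1.20) and without WT control replicate 2 (0.86), and leaving out 1 array gave -1.43 to 1.20. It turned negative for AT5G39520 without dor drought replicate 1 (-0.48), WT drought replicate 1 (-0.12) or WT drought replicate 2 (-0.29), leaving out 1 array gave -0.48 to 0.85, and raised signals gave 1.16. limma called 0 probe sets in all 19 settings, with 122 to 1201 at an unadjusted p under 0.05. In dor the drought difference moved by more than the spread of its replicates with raised signals (7.04 for AT5G39520, 6.16 for AT1G16850, 3.60 for OCT1). It also moved with an offset for OCT1 (6.75). For AT1G16850 it moved up to 10.74 without dor control replicate 1 or both controls of replicate 1, and down to 6.65 without dor control replicate 2. Leaving out 1 array gave 8.38 to 9.74, 6.65 to 10.74 and 7.89 to 9.26. The cause of these moves was not tested, apart from the treatment of dim signals, which those settings change by construction.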

Other observations

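Which of the 2 dor drought arrays was brighter differed between the genes. AT5G39520 and AT1G16850 were brighter on replicate 1, at 15559 and 10724, than on replicate 2, at 6062 and 2608, while OCT1 was brighter on replicate 2, at 1436 against 555. RCA, a gene of photosynthesis, read 9383 on dor drought replicate 1, its lowest value of the 8 arrays, and 26561 on replicate 2. OCT4 differed little between these arrays, at 483 and 411. WT drought showed the same split in part, with AT5G39520 at 2168 and 1617 and OCT1 at 106 and 508 on replicates 1 and 2, but AT1G16850 was brighter on replicate 2 there, at 782 against 422. With 1 array per genotype, condition and replicate number, these orders have no test.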
